A study of Mus musculus with 4 samples.

Results

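The type 1 program is described here through 6 genes, out of 21887 protein-coding genes counted: the transcription factors Tbx21 (T-bet) and Eomes, the cytokine gene Ifng, the IL-12 receptor genes Il12rb1 and Il12rb2, and the signal transducer Stat4. The members were chosen by name, and their accessibility was counted in every labelled cell type as ATAC fragments with an end in the gene span or the 5 kb on each side. Around Ifng, 410 tiles of 500 bp within 100 kb of the gene were counted as well. T cells had been sorted from orthotopic AKP tumors and from adjacent cecum at 4 weeks, and nuclei were profiled with a multiome assay that reads RNA and open chromatin of the same nucleus. AKP tumors grow from engineered mouse intestinal organoids injected into the cecal wall. The genotype, age and number of the mice behind the multiome libraries are not given in the sources used here. The cecum was tumor-free tissue beside the tumors, so it came from mice that bore tumors and not from untreated mice.

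Each tissue had 1 ATAC library, so tissue and library cannot be told apart and differences carry no test or p-value. Intervals are exact, at 95%, and reflect the counting of fragments but not variation between animals. Pairs of values give the cecum first and the tumor second. The cecum library held 7155 labelled cells with 43980981 fragments and the tumor library 8466 labelled cells with 62118519 fragments, in 17 cell types. Of these, 16 had at least 50 cells in both libraries. PD1+ CD4 cells numbered 14 in the cecum and are described in the tumor alone. Of the 15621 labelled barcodes, 84 sequences occurred in both libraries. The labels came from the RNA of the same nuclei, so the accessibility of these genes by label is not independent of how the types were named. Summed over all labelled cells, the windows of 6 T cell marker genes had 30.9 and 29.2 FPM per kb in all, where FPM is the number of fragments per 1000000 fragments of the same cells. The lists for NK, B, myeloid and epithelial cells had between 3.17 and 11.45 FPM per kb. Across cell types the summed NK list ranged from 23.8 FPM in IL-10+ Treg to 211 in CD8aa cells of the cecum and, in tumor cells, from 25.0 in Tfh-like to 215 in CD8aa cells, and its part in the levels of the members was not tested.

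IL-12, made by antigen-presenting cells, binds a receptor of the chains encoded by Il12rb1 and Il12rb2 and activates STAT4. STAT4 and T-bet act on Ifng, and T-bet also acts on Il12rb2, which makes type 1 helper cells more responsive to IL-12. Eomes is a T-box factor related to T-bet, known from CD8 memory and exhausted cells, and Il12rb1 is shared with the IL-23 receptor of type 17 cells.

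The bases just before the starts of Ifng, Tbx21 and Eomes are shown because the accessibility of these genes is compared below, mostly over windows that reach far beyond these bases. They are the 250 bases before the annotated start, 5′ to 3′ on the strand of the gene, from RefSeq on GRCm38.p6; the last 3 bases before Eomes lie within its gene span. The interval is chr10:118440796-118441045 on the plus strand for Ifng, chr11:97115332-97115581 on the minus strand for Tbx21 and chr9:118477939-118478188 on the plus strand for Eomes. Capitals mark a match to one of 4 motifs searched on both strands.
Ifng: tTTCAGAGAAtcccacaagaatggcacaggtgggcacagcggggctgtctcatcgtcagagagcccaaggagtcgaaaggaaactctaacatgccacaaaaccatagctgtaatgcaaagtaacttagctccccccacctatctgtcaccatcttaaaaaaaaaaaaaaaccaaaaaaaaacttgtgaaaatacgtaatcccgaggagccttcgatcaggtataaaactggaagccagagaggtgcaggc
Tbx21: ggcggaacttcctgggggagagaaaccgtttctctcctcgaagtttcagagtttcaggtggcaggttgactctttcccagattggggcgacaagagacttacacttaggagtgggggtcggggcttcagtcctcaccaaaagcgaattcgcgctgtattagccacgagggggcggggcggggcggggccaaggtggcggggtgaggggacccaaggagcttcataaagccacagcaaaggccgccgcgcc
Eomes: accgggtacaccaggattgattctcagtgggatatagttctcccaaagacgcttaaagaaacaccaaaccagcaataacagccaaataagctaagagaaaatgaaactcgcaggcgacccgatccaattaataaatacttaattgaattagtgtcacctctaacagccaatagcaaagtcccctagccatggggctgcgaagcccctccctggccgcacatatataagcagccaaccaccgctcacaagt
The motifs were the T-box half-site core TCACAC, the STAT palindrome TTCNNNGAA, the AP-1 site TGANTCA and the RUNX site TGTGGT. Of 32851 promoters, 12.3% held the first, 7.02% the second, 6.75% the third and 14.1% the last. The Ifng promoter held 1 STAT match and those of Tbx21 and Eomes held none of the 4. The Il12rb2 promoter held 1 T-box and 1 STAT match, and the promoters of the 2 annotated Stat4 starts held no match. The intervals of Il12rb2 and Stat4 also reach into their gene spans, and the T-box match of Il12rb2 lies within its span. A match is a description of letters and not of binding.

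Tbx21, the master regulator of type 1 cells, was highest in effector types of the CD8, helper and gamma delta lineages. It lies on the minus strand of chromosome 11 from 97098007 to 97115331. Cytotoxic CD8 cells had 157 FPM (144 to 171) and 156 FPM (144 to 170). Levels in CD8aa cells were 154 and 149 FPM, in Mucosal Th1 cells 141 and 124, in PD1+ CD8 cells 137 and 141, and in Cytotoxic gdT cells 141 and 116. These 5 types led the cecum, and in the tumor PD1+ CD4 cells joined them at 151. PD1+ CD8 over Cytotoxic CD8 cells had log2 ratios of -0.19 and -0.15, with intervals that just left out 0, but their sign depended on the window: within 1 kb of the start the ratios were 0.054 and 0.00792, and with 50 kb on each side that of the tumor was 0.11. In the cecum the gap below them, to Innate-like T#2 cells at 95.2 FPM, was one of only 2 among 15 neighboring pairs whose interval left out 0 (log2 ratio 0.53, 0.22 to 0.85). The lowest level was in CCR7+ CD4 cells, named for a lymph node homing receptor, at 18.4 and 28.8 FPM. The highest type exceeded the lowest 8.51-fold (5.56 to 13.7) and 5.43-fold (3.52 to 8.85).

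The 2 highest tiles of the Tbx21 window were adjacent and lay inside the gene, at 11.1 and 11.6 kb after the start. The first (chr11:97104001-97104500) had 20.4 and 20.9 FPM over all labelled cells. It had 58.9 and 42.5 FPM in CD8aa cells, 44.0 and 43.2 in Cytotoxic CD8 cells and 33.6 and 34.0 in Mucosal Th1 cells. No fragment fell there in CCR7+ CD4 cells of either library, and the floor of 3 counts would be 2.52 and 4.11 FPM. Th2 cells, the type 2 helper cells, had 19.3 and 34.2 FPM at this tile against 5.74 and 3.85 in Th17 cells. These values rest on 11 and 15 fragments in Th2 and on 5 and 9 in Th17 cells. PD1+ CD8 cells had 29.2 and 29.8 FPM, below Cytotoxic CD8 cells in both libraries.

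Eomes, on the plus strand of chromosome 9 from 118478186 to 118486132, had another order of cell types. It was highest in PD1+ CD8 cells, at 82.5 FPM (73.3 to 92.4) and 84.7 FPM. CCR7+ CD8 cells had 70.1 and 65.3 FPM, and their interval against PD1+ CD8 cells included 0 in both libraries. Innate-like T#2 cells, with 57.5 and 71.96 FPM, ranked above CCR7+ CD8 cells in the tumor and below them in the cecum. Mucosal Th1 cells, among the highest for Tbx21, had 20.3 and 30.1 FPM of Eomes, and CD8aa cells 22.7 and 28.9. CCR7+ CD4 cells, the lowest for Tbx21, had 35.2 and 50.7. Across the cell types with at least 50 cells, Tbx21 and Eomes had a Pearson r of log2(FPM + 1) of 0.0905 (n = 16) and 0.181 (n = 17), and Tbx21 and Ifng one of 0.955 and 0.799. Points of one library share its depth and its processing, and these r are descriptions. The Eomes window also holds the lncRNA genes Gm33408 and Gm33460, and its highest tile (chr9:118489501-118490000) overlaps Gm33460.

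Ifng, which encodes interferon gamma, lies on the plus strand of chromosome 10 from 118441046 to 118445894 and had the widest relative range of the members. PD1+ CD8 cells had 48.6 FPM (41.6 to 56.3) and 53.6 FPM (48.9 to 58.5). Cytotoxic CD8 cells had 45.5 and 48.7 FPM, Mucosal Th1 cells 45.7 and 44.0, CD8aa cells 43.6 and 41.9 and Cytotoxic gdT cells 43.2 and 41.5. The intervals of the other 4 against PD1+ CD8 cells included 0 in the cecum, and in the tumor only those of Cytotoxic CD8 and Mucosal Th1 cells did. CCR7+ CD4 cells had 1 fragment in the cecum (0.838 FPM) and 0 in the tumor. Ifng in PD1+ CD8 cells of the tumor was 13.03-fold higher than the floor of 3 counts for CCR7+ CD4 cells. The lower end of its interval was 10.56-fold. CCR7+ CD8 cells, with 9.45 and 11.3 FPM, lay above CCR7+ CD4 cells. Between the extremes lay Innate-like T#2 cells at 31.1 and 28.5 FPM and Innate-like T#1 cells at 15.1 and 17.1. Both Treg types, Th2 and Rorgt gdT cells had between 6.37 and 13.9 FPM in the 2 libraries.

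**Figure D1:**
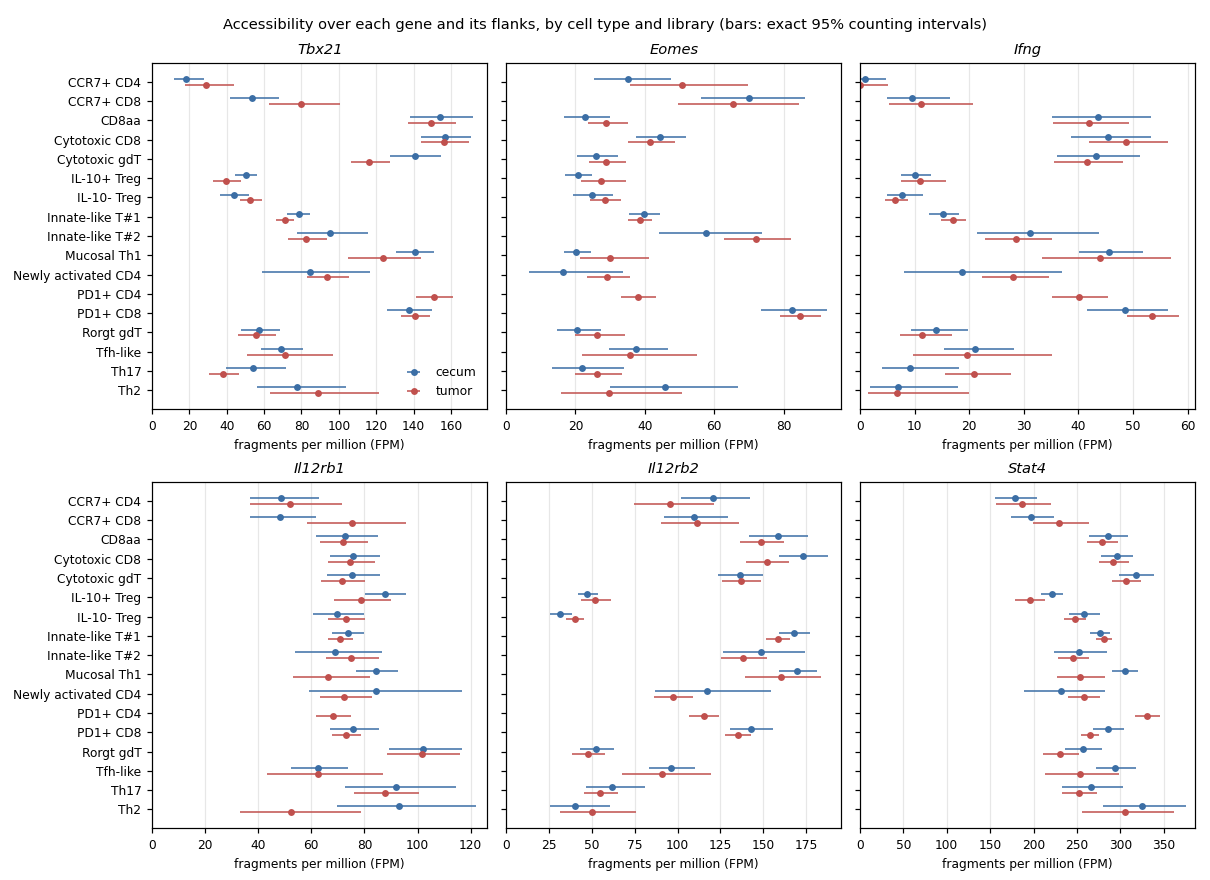
FPM over each of the 6 genes with 5 kb flanks (x axis, from 0) for each cell type with at least 50 cells (y axis), in cecum (blue) and tumor (red), with exact 95% counting intervals as bars. Tbx21 and Ifng share their leading effector types, Eomes is led by PD1+ CD8 cells at 82.5 and 84.7, and Stat4 and Il12rb1 vary least.

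Il12rb2, the chain that is specific to the IL-12 receptor, lies on the minus strand of chromosome 6 from 67285986 to 67376293. It was highest in Cytotoxic CD8 cells in the cecum, at 173 FPM, and in Mucosal Th1 cells in the tumor, at 161. The same types in the other library had 152 and 169.8 FPM. Innate-like T#1 cells, in the middle of the order for Ifng, were among the highest here with 168 and 158. The lowest levels were in IL-10- Treg at 31.7 and 40.0 FPM, followed by Th2, IL-10+ Treg, Rorgt gdT and Th17 cells, all between 40.4 and 62.0. CCR7+ CD4 cells had 121 and 95.9 FPM, so the type that was lowest for Tbx21 and Ifng was not low for Il12rb2. The highest tile, inside the gene 27.9 kb after the start (chr6:67348001-67348500), ranged from 3.33 FPM in IL-10- Treg to 35.1 in Cytotoxic CD8 cells of the cecum and from 5.86 to 33.2 in the tumor. CCR7+ CD4 cells had 25.1 and 15.1 FPM there. The window also takes in parts of Serbp1 and a snoRNA gene.

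Il12rb1, the chain shared by the receptors of IL-12 and IL-23, lies on chromosome 8 from 70808360 to 70823542 and was highest in Rorgt gdT cells, at 102 FPM in both libraries. Th17 cells followed in the tumor with 87.6 FPM. In the cecum Th2 cells followed with 93.2 FPM, though they had 52.4 in the tumor, and Th17 cells had 91.9. The cecum intervals of Th2, Th17, IL-10+ Treg and Newly activated CD4 cells against Rorgt gdT cells included 0. In the tumor only that of Th17 cells did. The lowest types for Il12rb1 were CCR7+ CD8 cells of the cecum at 48.0 FPM and CCR7+ CD4 cells of the tumor at 52.1. Its order was also the least alike between libraries, with r of 0.432 over 16 types, against 0.981 for Il12rb2, 0.962 for Ifng, 0.930 for Tbx21, 0.879 for Eomes and 0.854 for Stat4. The Il12rb1 window takes in part of Mast3. Its 2 highest tiles (chr8:70804501-70805500 together) overlap Mast3, so fragments of that gene are part of the Il12rb1 level. Without the flanks Rorgt gdT cells did not lead in the cecum, where Cytotoxic gdT cells lay above them with a log2 ratio of 0.014.

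Stat4, on the plus strand of chromosome 1 from 51987106 to 52107189, was accessible in every cell type. Its levels ran from 179 FPM in CCR7+ CD4 to 325 in Th2 cells of the cecum, a 1.82-fold range (1.49 to 2.23). Th2 cells numbered only 90 and 58. In the cecum the intervals of Cytotoxic gdT, Mucosal Th1, Cytotoxic CD8, Tfh-like, PD1+ CD8 and CD8aa cells against Th2 cells included 0. Tumor levels ran from 186 in CCR7+ CD4 to 331 in PD1+ CD4 cells, a 1.78-fold range. Th2 cells were also high in the tumor, at 305 FPM, so the highest Stat4 levels were not confined to types with a high Ifng level. The tile 0.511 kb after the second annotated start (chr1:52008501-52009000) was highest in Th2 cells of both libraries, at 38.7 and 43.3 FPM, and had 18.6 and 10.0 in Mucosal Th1 cells. Compared per length, over all labelled cells, Tbx21 had 3.47 and 3.64 FPM per kb, Il12rb1 3.06 and 2.91, Stat4 2.09 and 2.08, Eomes 1.99 and 2.42, Ifng 1.75 and 1.997 and Il12rb2 1.22 and 1.18.

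The type 1 helper cells were compared with other helper cells to ask which members separate them. A gene was counted as higher or lower when the log2 ratio of FPM, with a pseudocount of 1 FPM, reached 2-fold in both libraries. In Mucosal Th1 over Th17 cells 3 of 6 members were higher (background of genes higher 0.278%, lower 0.833%), namely Tbx21, Ifng and Il12rb2. Tbx21 had log2 ratios, given from here on without the pseudocount, of 1.38 (0.96 to 1.84) and 1.70 (1.32 to 2.09). That of Ifng was 2.31 (1.31 to 3.54) and 1.07 (0.49 to 1.65), and that of Il12rb2 was 1.45 and 1.55. Eomes, Il12rb1 and Stat4 stayed between -0.40 and 0.21, where the lowest value, of Il12rb1 in the tumor, became 0.10 with a mean over cells. The median of the 6 members, which like all medians of lists below is on the scale with the pseudocount, was 0.78 and 0.62, beside 0.05 and 0.04 over all genes tested. In Mucosal Th1 over Th2 cells Ifng and Il12rb2 were higher (background higher 0.56%, lower 0.44%), with log2 ratios of 2.70 (1.32 to 4.59) and 2.69 (1.07 to 5.01) for Ifng and 2.07 and 1.68 for Il12rb2. The Ifng ratios rest on 4 and 3 fragments in Th2 cells. Tbx21 was not among them, at 0.86 (0.42 to 1.34) and 0.48 (-0.04 to 1.02).

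Against CCR7+ CD4 cells, Mucosal Th1 cells were higher for Tbx21 and Ifng (background higher 1.68%, lower 1.28%). Tbx21 had log2 ratios of 2.93 and 2.10. Ifng had 5.77 against a single fragment of the cecum (3.28 to 11.1) and was 10.7-fold higher against the floor of the tumor. Eomes had -0.80 and -0.75, with both intervals below 0. Of the 28 genes of a wider type 1 list, 23 had enough fragments and 7 were higher in this contrast, among them Cxcr3, the chemokine receptor of type 1 cells, with log2 ratios with the pseudocount, as for all genes of the lists below, of 2.97 and 3.92, and Ccl5, a chemokine of effector cells, with 3.92 and 2.69. The median of that list was 0.39 and 0.50 beside -0.01 and -0.03 over all genes tested. Against Th17 cells 2 of 24 were higher, Ccl5 with 2.40 and 1.79 and the interferon-responsive factor Irf8 with 1.12 and 1.12. Against Th2 cells 1 of 23 was higher, Cxcr3, with 1.67 and 1.95.

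PD1+ CD4 cells of the tumor, compared with Mucosal Th1 cells of the tumor, had no member past 2-fold (background higher 4.28%, lower 0.494%). Their Ifng log2 ratio was -0.14 (-0.56 to 0.31), that of Tbx21 0.29 (0.05 to 0.54), that of Stat4 0.39 and that of Il12rb2 -0.48 (-0.70 to -0.25), which became 0.42 within 1 kb of the start. The median of the members was 0.16, beside -0.07 over all genes. Of 27 genes of the wider list 2 were higher, Il18rap, a chain of the IL-18 receptor, with 1.20 and Ccl3 with 1.18.

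In the CD8 lineage, Cytotoxic CD8 over CCR7+ CD8 cells had 1 member past 2-fold (background higher 1.46%, lower 1.4%), Ifng, with log2 ratios of 2.27 (1.42 to 3.25) and 2.11 (1.20 to 3.20). Tbx21 was just under the limit in the tumor, with 1.53 and 0.96 on the scale with the pseudocount. Eomes went the other way, at -0.66 and -0.65 with both intervals below 0. None of 26 wider list genes passed in this contrast. In PD1+ CD8 over Cytotoxic CD8 cells no member passed (background higher 0.284%, lower 0.111%). Eomes had 0.88 and 1.01 on the scale with the pseudocount, and without it 0.90 (0.61 to 1.19) and 1.03 (0.78 to 1.28), so that the cecum value lay under the limit and the tumor value above it. Ifng did not separate these cells, with 0.10 (-0.22 to 0.42) and 0.14 (-0.11 to 0.39). In CD8aa over Cytotoxic CD8 cells no member passed (background higher 0.491%, lower 0.521%), and Eomes had -0.96 and -0.52.

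Among gamma delta T cells, Cytotoxic gdT over Rorgt gdT cells again had Tbx21, Ifng and Il12rb2 past 2-fold (background higher 1.8%, lower 2.96%). Log2 ratios were 1.29 and 1.07 for Tbx21, 1.64 and 1.88 for Ifng and 1.38 and 1.53 for Il12rb2. Il12rb1 had -0.44 and -0.51, with both intervals below 0, but the sign depended on the window. In the cecum the ratio was 0.014 without flanks, which leaves out Mast3. It was 0.029 within 1 kb of either end of the gene, used because no start was listed for Il12rb1. In the tumor it was 0.011 with 50 kb on each side. Of the wider list 5 of 27 were higher, and the chemokine genes Ccl3 and Ccl4 led them with 3.40 and 3.09 and with 2.55 and 3.02. The median of the wider list was 0.03 and 0.01, beside 0.08 and 0.10 over all genes, so the list as a whole did not lie above them. The same 3 members were thus past 2-fold in the helper and the gamma delta contrast against a type 17 population.

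Between the Treg subsets no member passed (background higher 0.278%, lower 1.3%). Il12rb2 had 0.58 (0.24 to 0.94) and 0.37 (0.06 to 0.68) in IL-10+ over IL-10- Treg, and Stat4 had -0.22 and -0.34 with intervals that also left out 0, though within 1 kb of the start the tumor value was 0.19. Tbx21 had 0.20 (-0.10 to 0.51) and -0.41 (-0.74 to -0.09), of unlike sign. Of 25 genes of the wider list 2 were lower, Il18rap with -1.16 and -1.04 and Ccl5 with -1.47 and -1.16. Between the innate-like types no member passed (background higher 0.204%, lower 0.265%). Ifng had -1.04 and -0.74 in Innate-like T#1 over Innate-like T#2 cells and Eomes -0.53 and -0.90, with all 4 intervals below 0. Il12rb2 did not follow them, at 0.18 and 0.20.

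**Figure D2:**
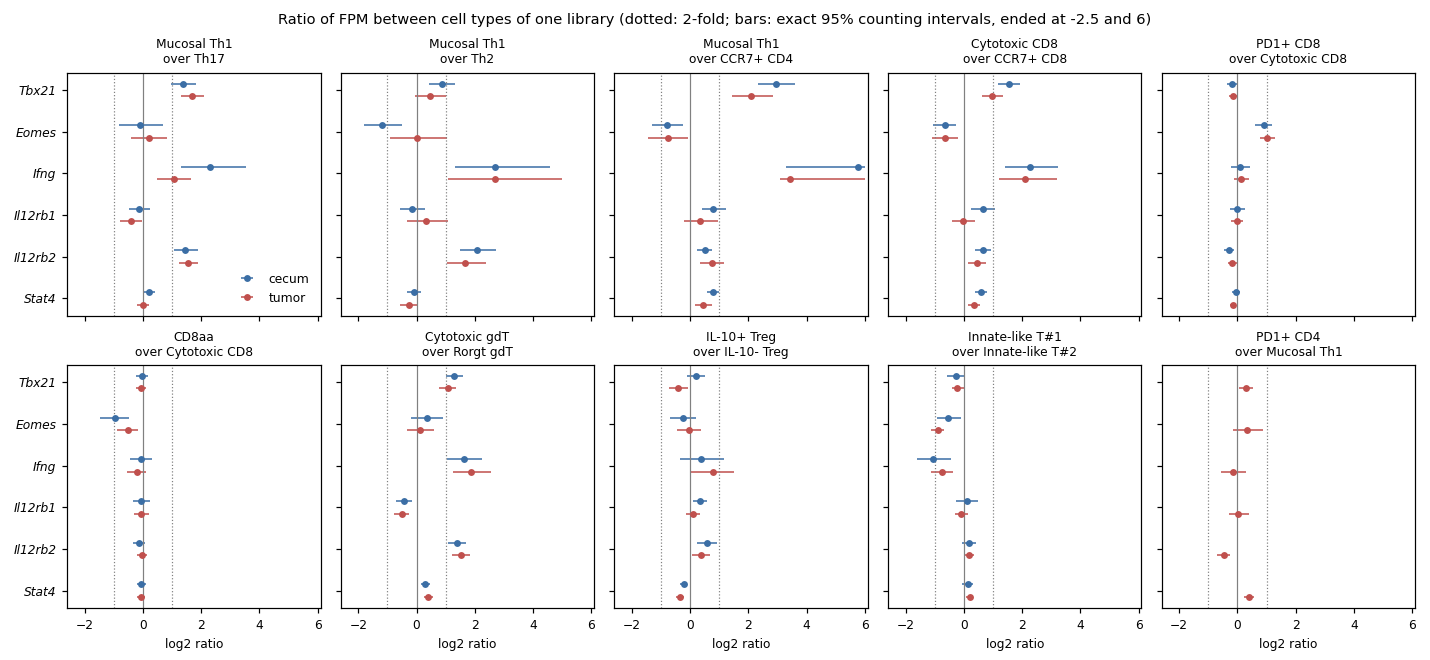
Log2 ratio of FPM (x axis) for each of the 6 members (y axis) in 10 contrasts between cell types, in cecum (blue) and tumor (red), with exact 95% counting intervals ended at -2.5 and 6 and dotted lines at 2-fold. Tbx21, Ifng and Il12rb2 lie to the right of the 2-fold line against Th17 and against Rorgt gdT cells, and the members lie near 0 between PD1+ and Cytotoxic CD8 cells except Eomes.

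The counts were repeated in a narrower and a wider window. Within 1 kb of the annotated start, 1 member passed against Th17 (background of genes higher in this window 0.0827%), none against Th2 (0.109%) or CCR7+ CD4 (0.373%) and 1 in the gamma delta contrast (0.667%), but several of the lost calls kept their ratio and fell under the minimum of 50 fragments. Il12rb2 against Th17 cells had log2 ratios of 2.59 and 3.08 there, with 17 fragments in the tumor. Ifng against Th2 cells had 2.52 and 2.69, with 40 fragments in the tumor, and against CCR7+ CD4 cells, which had no fragment near the start, it was past 2-fold at the floor with 38. Il12rb2 in the gamma delta contrast had 1.52 and 1.86, with 45 fragments in the cecum. Tbx21 near the start differed between libraries, with 0.35 and 1.18 against Th17 cells, the latter from 54 fragments, and 2.12 and -0.01 against CCR7+ CD4 cells, the latter from 47 fragments. In the gamma delta contrast it was under 2-fold in both, at 0.11 and 0.24. Ifng in Cytotoxic over CCR7+ CD8 cells passed there with 2.44 and 2.06 (background higher 0.469%). Calls were also gained near the start. Eomes passed in PD1+ over Cytotoxic CD8 cells, with 31.4 against 12.7 FPM in the cecum and 30.5 against 12.25 in the tumor. Stat4 passed in PD1+ CD4 over Mucosal Th1 cells of the tumor, with 37.9 against 17.0 FPM, the latter from 22 fragments. The background in this window was not computed for these contrasts. With 50 kb on each side, where every called member had enough fragments, the counts against Th17, Th2, CCR7+ CD4 and Rorgt gdT cells were 1, 1, 2 and 0 (background higher 0.243%, 0.504%, 1.81% and 1.27%), and Ifng against Th17 cells had 0.32 and 0.24. In Cytotoxic over CCR7+ CD8 cells the count fell from 1 to 0 (background higher 1.59%), with 0.55 and 0.63 for Ifng.

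Around Ifng, 8 of the 410 tiles held 39.3% and 38.9% of the fragments of the region. The median tile had 0.114 and 0.113 FPM. From the annotated start their centers lay at -33.8, -21.8, -5.29, -0.295, 0.204, 17.7, 29.7 and 45.7 kb. All but the tile at 0.204 kb, which lies in Ifng, overlapped no annotated gene. The most accessible was that at -21.8 kb (chr10:118419001-118419500), with 29.97 and 29.3 FPM. It was open in every cell type, with 23.3 to 40.5 FPM in cecum types and 13.2 to 38.7 in tumor types. CCR7+ CD4 cells, with no fragment at the start, had 39.4 and 26.03 FPM there, and IL-10- Treg had 30.3 and 26.5.

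The tile just before the start (chr10:118440501-118441000) had a different pattern. It was at 0 in CCR7+ CD4 cells of both libraries, at 1.999 and 1.895 FPM in IL-10- Treg and at 3.44 and 6.41 in Th17 cells. It had 22.9 and 23.2 FPM in Mucosal Th1 cells, 23.9 and 24.2 in Cytotoxic CD8 cells, 23.3 and 27.8 in PD1+ CD8 cells and 20.3 and 25.1 in Cytotoxic gdT cells. The ratio of its fragments to those of the tile at -21.8 kb, a measure chosen after the tiles had been seen, does not depend on the scaling of a cell type. It was 1.0 (0.730 to 1.37) and 0.981 (0.822 to 1.17) in PD1+ CD8 cells, 0.712 and 0.625 in Mucosal Th1 cells and 0.257 and 0.270 in Innate-like T#1 cells. It was 0.0659 and 0.0714 in IL-10- Treg and at most 0.0816 and 0.214 in CCR7+ CD4 cells by the upper end of the interval. PD1+ CD4 cells of the tumor had the highest ratio, 1.097 (0.832 to 1.45). Before the start they had 18.4 FPM, a log2 ratio of -0.33 (-0.92 to 0.30) against Mucosal Th1 cells, whose interval included 0. At -21.8 kb they had 16.8 FPM, a log2 ratio of -1.14 (-1.65 to -0.62) against Mucosal Th1 cells.

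**Figure D3:**
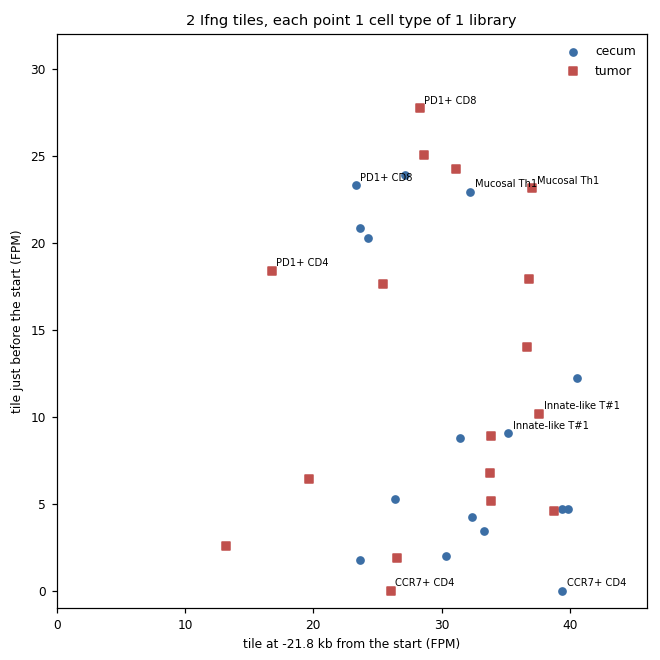
FPM of the tile just before the Ifng start (y axis) against FPM of the tile at -21.8 kb (x axis), each point 1 cell type with at least 50 cells of 1 library, in cecum (blue circles) and tumor (red squares). The y values run from 0 in CCR7+ CD4 cells to 27.8 in PD1+ CD8 cells of the tumor, and the x values from 13.2 in IL-10+ Treg of the tumor to 40.5 in Innate-like T#2 cells of the cecum.

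The other tiles lay between these patterns. Over cell types, r of log2(FPM + 1) with the tile before the start was 0.821 and 0.885 for the tile at -5.29 kb and 0.756 and 0.787 for that at 29.7 kb. It was 0.414 and 0.503 for that at 17.7 kb and -0.403 and 0.238 for that at -21.8 kb. The tile at -5.29 kb (chr10:118435501-118436000) was highest in PD1+ CD8 cells, at 19.2 and 21.3 FPM, and had 1.39 and 0.941 in Rorgt gdT cells. The tile at 17.7 kb was highest in Th17 cells of the tumor, at 21.8 FPM, though the tile before the start was low in them. In the cecum the tile at 17.7 kb was highest in Mucosal Th1 cells, at 16.1 FPM, and Th17 cells had 14.9 from 13 fragments. The log2 ratio of Mucosal Th1 over Th17 cells there was 0.11 (-0.74 to 1.08).

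Some tiles that separated cell types lay outside these 8. A tile at 28.2 kb (chr10:118469001-118469500) had 7.77 and 14.4 FPM in PD1+ CD8 cells against 3.84 and 3.20 in Cytotoxic CD8 cells, with log2 ratios of 1.02 (0.02 to 2.09) and 2.18 (1.32 to 3.16). It had 17.9 and 15.6 FPM in Innate-like T#2 against 0.868 and 1.52 in Innate-like T#1 cells, with -4.37 and -3.36. It also had 8.66 and 13.5 FPM in CCR7+ CD8 cells, and these 3 were also the leading types of Eomes in both libraries, an observation made after the values were seen. Tiles in the lncRNA gene Ifngas1 were open in type 17 cells. That at 95.7 kb (chr10:118536501-118537000) had 16.1 and 11.5 FPM in Th17 and 7.86 and 9.88 in Rorgt gdT cells, against 0.569 and 1.54 in Mucosal Th1 and 1.66 and 1.19 in Cytotoxic gdT cells. Cytotoxic CD8 cells had 1.18 and 4.53 FPM there. The tumor value of Mucosal Th1 cells lay under the floor of 3 counts, which is 2.32 FPM for them. The gamma delta values rest on 17 and 21 fragments in Rorgt gdT and on 5 and 5 in Cytotoxic gdT cells. A tile at -28.3 kb (chr10:118412501-118413000) had 0.876 and 0.367 FPM in IL-10+ Treg against 6.33 and 3.96 in IL-10- Treg. The log2 ratios were -2.85 (-4.63 to -1.385) and -3.43 (-8.80 to -0.81). They rest on 5 fragments and 1 fragment in IL-10+ Treg, the latter under the floor of 3 counts.

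Tiles with at least 20 fragments over both types in each library were counted past 2-fold in the same contrasts, from ratios without a pseudocount and with the floor of 3 counts in place of 0. The background is the share of all 500-bp tiles of the genome with as many fragments that were called, given for higher and then lower tiles. For Mucosal Th1 cells the counts were 2 higher and 1 lower of 10 over Th17 (background 1.58% and 1.92%), 1 and 0 of 4 over Th2 (3.29% and 0.881%) and 2 and 0 of 3 over CCR7+ CD4 cells (5.56% and 2.05%). They were 8 and 1 of 17 for Cytotoxic CD8 over CCR7+ CD8 cells (6.34% and 2.91%), 1 and 0 of 25 for PD1+ CD8 over Cytotoxic CD8 (1.71% and 1.18%) and 0 and 0 of 18 for CD8aa over Cytotoxic CD8 (2.82% and 1.68%). For Cytotoxic gdT over Rorgt gdT they were 4 and 1 of 16 (7.14% and 5.97%), for IL-10+ over IL-10- Treg 0 and 1 of 14 (2.2% and 3.22%) and for Innate-like T#1 over T#2 0 and 5 of 21 (2.73% and 1.86%). In the tumor alone, PD1+ CD4 over Mucosal Th1 had 10 and 2 of 33 (18.7% and 6.04%), where the background was highest. With this few tiles tested, counts of 1 or 2 are not read against the background. Most of these counts moved by more than 1.5 times when the minimum was 50 fragments. The single tiles counted at 28.2 kb for PD1+ CD8 cells and at -28.3 kb for Treg were among the calls lost.

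**Figure D4:**
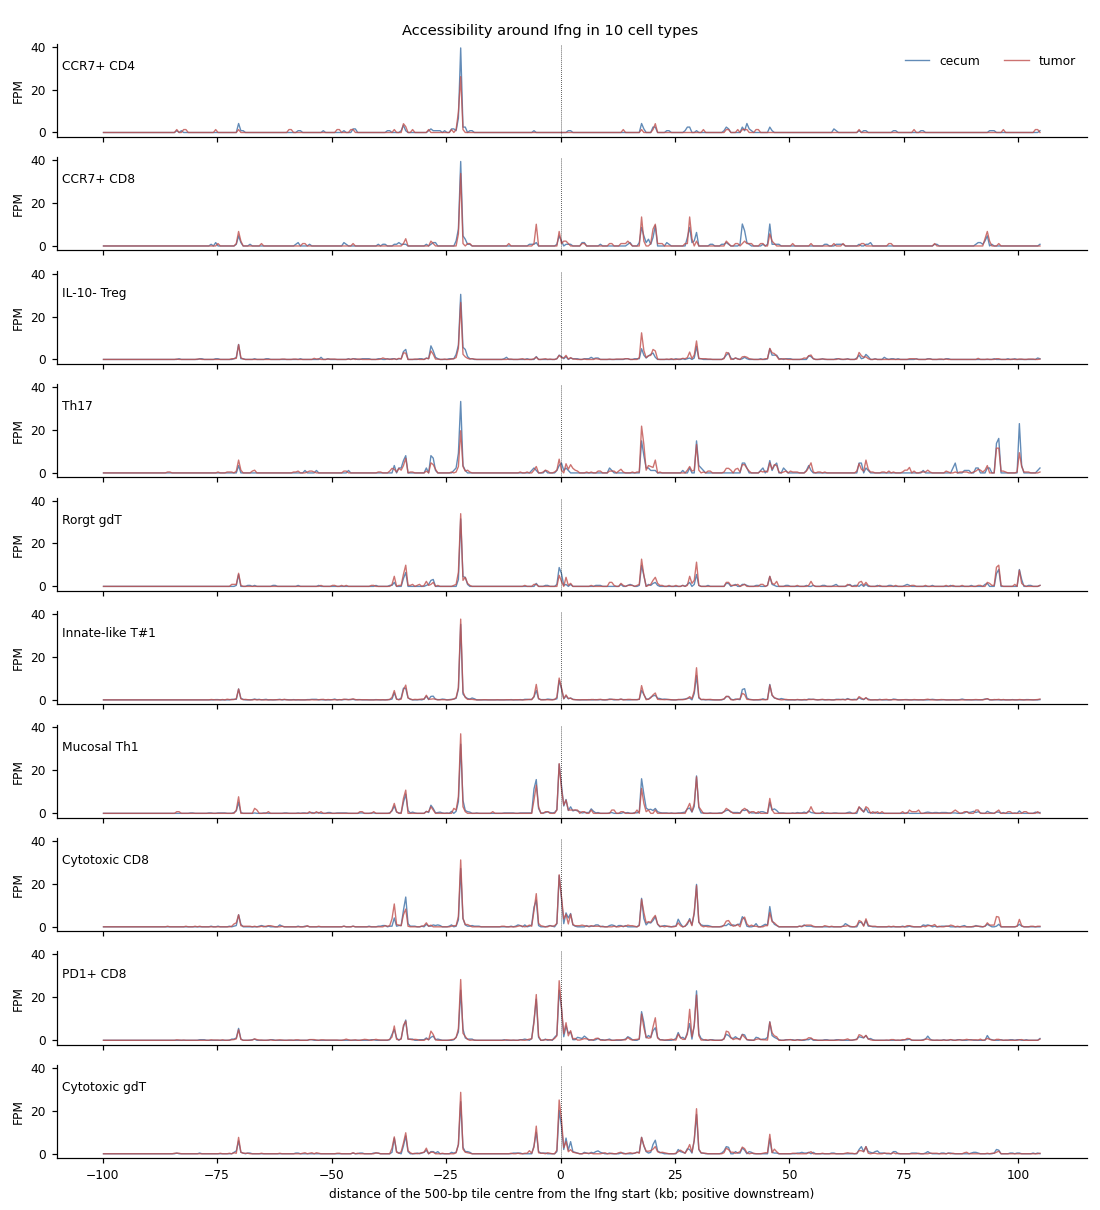
FPM of 500-bp tiles (y axis) by distance from the Ifng start in kb (x axis, positive downstream) in 10 cell types, in cecum (blue) and tumor (red). The peak at -21.8 kb is present in each of them, the one at the start is at 0 in CCR7+ CD4 cells and high in the effector types, and Th17 and Rorgt gdT cells have peaks at 95.7 and 100.2 kb.

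Tumor and cecum were compared within each cell type. Of 95 pairs of member and type, 4 had an interval above 0 (background 5.8% of all pairs of gene and type) and 8 one below 0 (background 5.91%), and the median log2 ratio was -0.04. The background pairs had at least 50 fragments over both libraries, a minimum the members were not held to, and neither count of members stands clear of it. Ifng in CCR7+ CD4 cells was left out because both counts were under the floor. Ifng in Th17 cells had the largest ratio, with 9.19 and 20.9 FPM, a log2 ratio of 1.19 (0.10 to 2.48) from 8 and 49 fragments, and 0.679% of genes were at least as far from 0 in these cells. Il12rb1 in Th2 cells had the lowest, at -0.83 (-1.60 to -0.10), where 1.98% of genes were as far. In the 5 types with the highest Ifng level of both libraries, the Ifng interval included 0. Stat4 had an interval below 0 in 3 types, namely Mucosal Th1 at -0.27, IL-10+ Treg at -0.18 and PD1+ CD8 at -0.11. Eomes had 0.57 (0.0018 to 1.11) in Mucosal Th1 cells and Il12rb2 -0.19 in Cytotoxic CD8 cells.

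**Figure D5:**
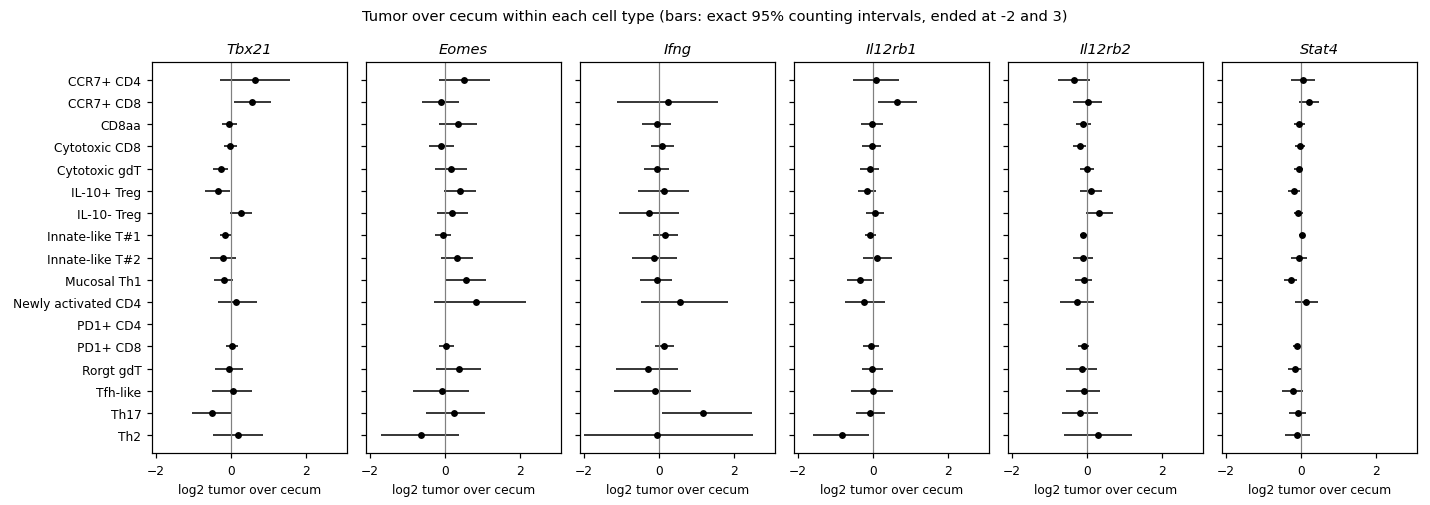
Log2 ratio of FPM, tumor over cecum, for each of the 6 members (panels) within each cell type that had at least 50 cells in both libraries (y axis), with exact 95% counting intervals ended at -2 and 3. Most intervals include 0, and the point farthest from 0 is Ifng in Th17 cells at 1.19.

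For each member the 5 genes with the most similar pattern were named by the smaller Pearson r of the 2 libraries, over 16 cell types in the cecum and 17 in the tumor. Ifng was most like Cxcr3, with 0.921 and 0.928, followed by Myo1f, Rapgef1, Gfod1 and Acrbp. Tbx21 was most like Ccl5, with 0.907 and 0.852, then Sorl1, Acrbp, Lim2 and Ccl4. Il12rb2 was most like Mctp2, with 0.909 and 0.919, then Kcnj8, Sh3bp2, Slc13a3 and Atp6v0a2. Eomes was most like Gm10840, with 0.776 and 0.792, then Zdhhc14, Prkcb, Limd2 and Bend4. Gm10840 and Limd2 overlap on chromosome 11 and share fragments, and so do Gm40755 and Pawr below. Il12rb1 was most like Cryba4, Septin11, Blcap, Ak5 and Abi3bp, between 0.708 and 0.884. Stat4 was most like Gm40755, Pawr, Plscr1, Gabarapl1 and Acadl, between 0.779 and 0.876. With Spearman's rho only 1 of the 5 genes stayed for Ifng, Tbx21 and Il12rb2, so these names are a description of the largest r and no more.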

How the data were processed

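The multiome gave 4 samples, of which both ATAC libraries entered the counts and both RNA libraries were not analysed here. The deposited fragment tables came from Cell Ranger ARC 2.0.0 with the mm10 reference, per the file headers. As deposited, every line is a fragment collapsed from duplicates, with its cell barcode, a raw count of its read pairs and ends moved to the transposase cut. The authors also deposited a label for each cell, from clustering of its RNA. The members and lists were chosen with earlier results of these data known.

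Fragments on autosomes, X and Y with at least 1 end in a window added 1 each to it. Sums per label were divided by all fragments of that label and multiplied by 1000000 (FPM). Gene spans came from RefSeq GRCm38.p6, the build of mm10. Genes needed at least 50 fragments over both types in each library and tiles 20. The same tile call over the whole genome gave the background of the tiles. Ratios have exact conditional and levels exact Poisson intervals at 95%, and a floor of 3 counts stood for 0. Genes were called with a pseudocount of 1 FPM and tiles without. Genes of similar pattern had at least 500 fragments in each library. The tiles and list genes named were those with the highest level or ratio by a rule set with the comparisons: 8 tiles for Ifng, 2 for each other member and 3 a contrast at most, and 2 list genes a contrast. The window without flanks and the ratio of 2 Ifng tiles were chosen after seeing the data. No doublet caller was run. The counting and the ratios were tested on simulated data. Python 3.11.15 ran scipy 1.17.1, numpy 2.4.6, numba 0.67.0, pandas 2.3.3 and, for plots, matplotlib 3.10.9. A list of genes of other lineages and part of the tumor genotype are not reported here.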

Additional observations from a re-analysis of the deposited data

Results flagged for a closer look

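Tumor over cecum ratios of opposite sign, each with an interval that left out 0, were found in different cell types for 2 members. The difference between the cell types was not tested, since each tissue had 1 library. Tbx21 had a log2 ratio of 0.58 in CCR7+ CD8 cells, -0.27 in Cytotoxic gdT cells and -0.34 in IL-10+ Treg. Il12rb1 had 0.65 in CCR7+ CD8 cells, -0.35 in Mucosal Th1 cells and -0.83 in Th2 cells. For Tbx21, 6.36% of genes were at least as far from 0 in CCR7+ CD8 cells, 15.7% in Cytotoxic gdT cells and 12.8% in IL-10+ Treg. For Il12rb1 the shares were 4.37% in CCR7+ CD8, 16.0% in Mucosal Th1 and 1.98% in Th2 cells.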

How the results depend on the processing

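No paired analysis was possible because each tissue had 1 ATAC library, and no replicate could be left out. Of the counts recomputed, 314 stayed within 1.5 times and 88 moved. Of the single values, 780 stayed within their intervals, 107 moved and 23 reversed. The cause was not tested. Counts are of members or Ifng tiles past 2-fold, higher unless said otherwise. The share over all genes was recomputed near the start and with 50 kb for some contrasts only, and under no other changed setting. No share over the genome was recomputed for tiles. Gained or lost calls are therefore not read as results about the members.

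With 1 kb around the start, where fewer genes reach 50 fragments, some lost calls fell below that minimum and others, of Tbx21, fell under 2-fold, and members went from 3 to 1 against Th17, 2 to 0 against Th2, 2 to 0 against CCR7+ CD4, 0 to 1 in PD1+ CD8, 3 to 1 in gdT and 0 to 1 in PD1+ CD4, and tumor over cecum intervals from 4 to 7 above 0 and 8 to 2 below. With 50 kb they went from 3 to 1 (Th17), 2 to 1 (Th2), 1 to 0 (Cytotoxic CD8) and 3 to 0 (gdT), members led by the same type in both libraries from 4 to 2, and intervals to 10 above and 14 below. Without flanks, added after seeing the data, they went from 2 to 1 (Th2), 2 to 1 (CCR7+ CD4), 1 to 2 (Cytotoxic CD8) and 0 to 1 (PD1+ CD8), and shared leaders to 1. With a gene minimum of 200, which tests fewer genes, they went from 2 to 1 (Th2), 2 to 0 (CCR7+ CD4) and 1 to 0 (Cytotoxic CD8). Scaled by fragments near gene ends, Cytotoxic CD8 went from 1 to 2, lower tiles in PD1+ CD4 from 2 to 1, and intervals to 7 above and 5 below. The background of intervals was computed for the original counts alone. Counts of intervals under the other settings, here and below, thus have no share beside them and are not read as a tissue difference of the members.

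With a mean over cells, Cytotoxic CD8 had 2 members, and intervals were 9 above and 18 below. Those were the intervals of the pooled counts, moved to the new value, and are not exact for this mean. In this setting tiles went from 2 to 1 (Th17), 1 to 3 (Th2), 1 to 2 lower (Cytotoxic CD8), 1 to 2 (PD1+ CD8) and 0 to 1 (Innate-like). With a tile minimum of 50, which tests fewer tiles, they went from 2 to 0 and 1 to 0 lower (Th17), 1 to 0 (Th2), 2 to 0 (CCR7+ CD4), 8 to 2 and 1 to 0 lower (Cytotoxic CD8), 1 to 0 (PD1+ CD8), 4 to 2 and 1 to 0 lower (gdT), 1 to 0 lower (Treg), 5 to 1 lower (Innate-like), and 10 to 0 and 2 to 1 lower (PD1+ CD4). Without cells above 3 times the median depth, tiles went from 1 to 0 lower (Th17), 8 to 3 and 1 to 0 lower (Cytotoxic CD8), 1 to 0 (PD1+ CD8), 1 to 0 lower (gdT and Treg each), 5 to 1 lower (Innate-like), and 10 to 4 and 2 to 1 lower (PD1+ CD4), members from 0 to 1 lower (CCR7+ CD4), 1 to 2 (Cytotoxic CD8) and 0 to 1 (PD1+ CD8), and intervals below from 8 to 4. With every fragment end counted, tiles went from 1 to 0 lower (Th17), 2 to 1 (CCR7+ CD4), 8 to 4 and 1 to 2 lower (Cytotoxic CD8), 1 to 0 (PD1+ CD8), 1 to 0 lower (gdT and Treg each), 0 to 1 and 5 to 2 lower (Innate-like) and 10 to 6 (PD1+ CD4). With tiles shifted by 250 bp they went from 1 to 2 lower (Th17), 1 to 2 (Th2) and 4 to 2 (gdT).

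Of the 5 genes most like each member, Spearman's rho kept 1 for Tbx21, 2 for Eomes, 1 for Ifng, 2 for Il12rb1, 1 for Il12rb2 and 0 for Stat4. Types of at least 150 cells kept 0 for Tbx21, 1 for Eomes, 2 for Ifng, 1 for Il12rb1 and 0 for Stat4, and a minimum of 2000 fragments kept 2 for Il12rb1, 3 for Il12rb2 and 2 for Stat4.

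These log2 ratios reversed. With a mean over cells, in the tumor, Il12rb1 against Th17 became 0.10, Stat4 against CCR7+ CD4 -0.017 and Tbx21 between innate-like types 0.00116. With 1 kb around the start, against CCR7+ CD4 in the tumor, Tbx21 became -0.00831, Il12rb2 -0.020 and Stat4 -0.37. In Cytotoxic CD8 over CCR7+ CD8, Il12rb2 became -0.023 and -0.080 and Stat4 in the cecum -0.16. In PD1+ CD8, Tbx21 became 0.054 and 0.00792 and Il12rb2 in the tumor 0.20. In gdT, Il12rb1 in the cecum became 0.029 and Stat4 -0.71 and -0.83. In Treg, Il12rb1 in the cecum became -0.083 and Stat4 in the tumor 0.19. For Il12rb1, which had no listed start, this window was 1 kb around either end of the gene. In the tumor, Tbx21 and Stat4 between innate-like types became 0.27 and -0.25 and Il12rb2 in PD1+ CD4 0.42. With 50 kb, Tbx21 in PD1+ CD8 became 0.11 and Il12rb1 in gdT 0.011, both in the tumor, and without flanks Il12rb1 in gdT of the cecum became 0.014.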
